A study of Mus musculus with 2 samples.

Results

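The YAP/TAZ-TEAD genes described here are 10 genes of 1 signalling route: Yap1 (ENSMUSG00000053110), Wwtr1 (ENSMUSG00000027803), Tead1 (ENSMUSG00000055320), Tead4 (ENSMUSG00000030353), Ccn1 (ENSMUSG00000028195), Ccn2 (ENSMUSG00000019997), Ankrd1 (ENSMUSG00000024803), Amotl2 (ENSMUSG00000032531), Lats2 (ENSMUSG00000021959) and Axl (ENSMUSG00000002602). They were chosen by symbol, and all 10 were found once each among the 33696 features of the matrix. The cells measured were cultured KPCY 6419c5, a mouse line from a pancreatic ductal adenocarcinoma, in which 2 clones, 76 and 84, had been mixed in equal parts. Both clones carried the BASELINE lineage-tracing system, had been transfected with a Cas12a adenine base editor, were each grown from a single sorted cell, and were harvested at 19 days of editing. There was no untreated or unedited group. A second pool, of clones 1, 32, 33, 52 and 76, was not analysed here.

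YAP, encoded by Yap1, and TAZ, encoded by Wwtr1, are transcriptional coactivators that do not bind DNA themselves. They enter the nucleus when the Hippo kinases are inactive, for example in spread cells on a stiff support, and act there on DNA-bound TEAD proteins. LATS kinases phosphorylate YAP and TAZ and keep them in the cytoplasm, and angiomotins hold them at junctions. Genes such as Ccn1, Ccn2, Ankrd1, Axl, Amotl2 and Lats2 are widely used as readouts of YAP and TAZ. RNA levels of Yap1 and Wwtr1 do not report on where the proteins are.

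The DNA letters that TEAD proteins recognise are shown first, because most of these genes are read as TEAD targets. RefSeq promoter windows of build GRCm38.p6, from 250 bases before to 50 after an annotated start site, matched 7 of the 10 genes: Yap1, Wwtr1, Ccn1, Ankrd1, Amotl2, Lats2 and Axl. The letters CATTCC, the core of the TEAD motif, were searched on both strands. They stood in at least 1 window of each of the 7 genes, against 14.7% of all 32851 windows of 300 bases. Ankrd1 had 2 matches, against 1.36% of windows with 2 or more. Wwtr1 had 2 windows, in which the same match lay 136 and 170 bases before the start site, and the first distance is printed. The second Lats2 window had no match. A match is a description of letters and not of a bound site, and the target genes among the 7 are known for TEAD regulation. The stretches of 30 bases around each match are printed on the strand that reads CATTCC, with those letters in capitals.

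Yap1 (chr9:8004720-8004749, plus strand, match 141 bases before the start site): tgcgcgtcgctaCATTCCtgcagactcccg
Wwtr1 (chr3:57576029-57576058, plus strand, match 136 bases before the start site): agcgcctatctgCATTCCtttgagtttacc
Ccn1 (chr3:145650071-145650100, minus strand, match 103 bases before the start site): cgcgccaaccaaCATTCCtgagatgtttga
Ankrd1 upstream match (chr19:36120037-36120066, plus strand, match 210 bases before the start site): atgtgagagggtCATTCCtttggcagtgac
Ankrd1 downstream match (chr19:36119950-36119979, plus strand, match 123 bases before the start site): caggtgaattttCATTCCagacttagtgtc
Amotl2 (chr9:102717727-102717756, plus strand, match 65 bases before the start site): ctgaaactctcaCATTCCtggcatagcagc
Lats2 (chr14:57746102-57746131, plus strand, match 4 bases after the start site): ctacattgttggCATTCCacgggcgtcacg
Axl (chr7:25788949-25788978, plus strand, match 233 bases before the start site): gggtctggtaaaCATTCCtgtagaatttcc

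The AP-1 letters TGANTCA and the CArG box, which is bound by the serum response factor, had 0 matches in these windows, against 7.81% and 1.63% of all windows. The 250 bases before the start site are shown whole for Ankrd1 and Ccn1, the pair with the highest r in A cells, on the strand of the gene. Capitals again mark the core, which reads GGAATG where it lies on the other strand.

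Ankrd1 (chr19:36119845-36120094, minus strand): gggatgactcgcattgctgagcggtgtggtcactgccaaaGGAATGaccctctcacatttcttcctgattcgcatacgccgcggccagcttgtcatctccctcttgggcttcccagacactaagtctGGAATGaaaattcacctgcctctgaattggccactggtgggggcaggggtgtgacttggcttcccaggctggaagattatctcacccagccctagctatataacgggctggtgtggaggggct
Ccn1 (chr3:145649986-145650235, minus strand): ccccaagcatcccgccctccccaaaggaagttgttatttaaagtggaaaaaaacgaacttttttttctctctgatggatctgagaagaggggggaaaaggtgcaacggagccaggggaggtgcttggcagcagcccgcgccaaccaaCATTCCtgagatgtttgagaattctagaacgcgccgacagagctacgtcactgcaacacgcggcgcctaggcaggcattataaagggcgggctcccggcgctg

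No clone label was attached to the cells, so cells were placed by marker genes, and the placed cells are not called clones. Of 22178 barcodes, 21361 were kept. Each had 2000 or more UMIs (unique molecular identifiers, 1 per captured RNA molecule), 1000 or more genes, and a mitochondrial share of 15% or less. A cells had at least 2 UMIs of Pde10a, Plcb1, Galnt18, Arhgap15 and Ceacam1 together, and at least 3 times as many as of S100a7a, Rgs20, Hs6st2, Ccbe1, Ctse and Mal. B cells met the reverse rule. This gave 7816 A cells (36.6%) with a median of 4699.5 UMIs, and 8936 B cells (41.8%) with a median of 5440.5 UMIs. The median mitochondrial share was 3.19% in A cells and 1.89% in B cells. Of the other 4609 cells, 3966 had under 2 UMIs of both marker sums and 464 had at least 2 of both. The marker genes are those that differed most between groups of these same cells, so the contrast of A with B is a description. There is 1 library and no replicate, so no p-value is given. Intervals are at 95% and cover counting error only. They are exact Poisson intervals for levels and exact Clopper-Pearson intervals for shares.

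The cells had the markers of an epithelial tumour line. The 8 epithelial markers summed to 2771 CPM (UMI counts of a gene scaled to a common total of 1e6 UMIs per group) in A cells and 7891 CPM in B cells, led by Krt18 at 1083 and 3019 CPM. Of its 7 tested genes 5 were at least 2-fold higher in B cells and 1, Epcam, in A cells, at 31.8 against 3.17 CPM. Over all features tested, 7.26% and 10.3% were that much higher in B and A cells. The 8 fibroblast markers summed to 2.11 and 0.929 CPM, with Col3a1 the highest in A cells (1.27 CPM) and Pdgfra in B cells (0.606 CPM), and Col1a2, Dcn, Lum and Postn, 4 of the 8, at 0 UMIs. The immune markers summed to 3.18 and 0.985 CPM, with Coro1a the highest in A cells (1.94 CPM) and Cd68 in B cells (0.587 CPM). Endothelial markers summed to 33.5 and 8.57 CPM, of which Egfl7 made up 32.6 and 7.75 CPM, and acinar markers to 13.7 and 4.38 CPM, led by Prss2. Endocrine markers, led by Ins2, had 2 and 4 UMIs. The part of the fibroblast, endothelial, immune and acinar counts in the results below was not tested.

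Of the 10 pathway genes, 6 were at least 2-fold higher in B cells, all of them target or feedback genes except Tead4, whereas 0 were at least 2-fold higher in A cells. The 6 were Axl, Ankrd1, Ccn2, Lats2, Tead4 and Amotl2. Over all 8800 features with at least 10 CPM in either group, 7.26% were at least 2-fold higher in B cells and 10.3% at least 2-fold higher in A cells. The median log2 ratio of A over B was -1.14 for the 10 genes and 0.17 for all features tested. Scaling to that median ratio lowers every log2 ratio by 0.17. It leaves the same count of 6 and 0, but gives 786 features higher in B and 683 in A, in place of 639 and 908. The summed level of the 10 genes was 632 CPM (625 to 640) in A cells and 992 CPM (984 to 1001) in B cells.

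**Figure D1:**
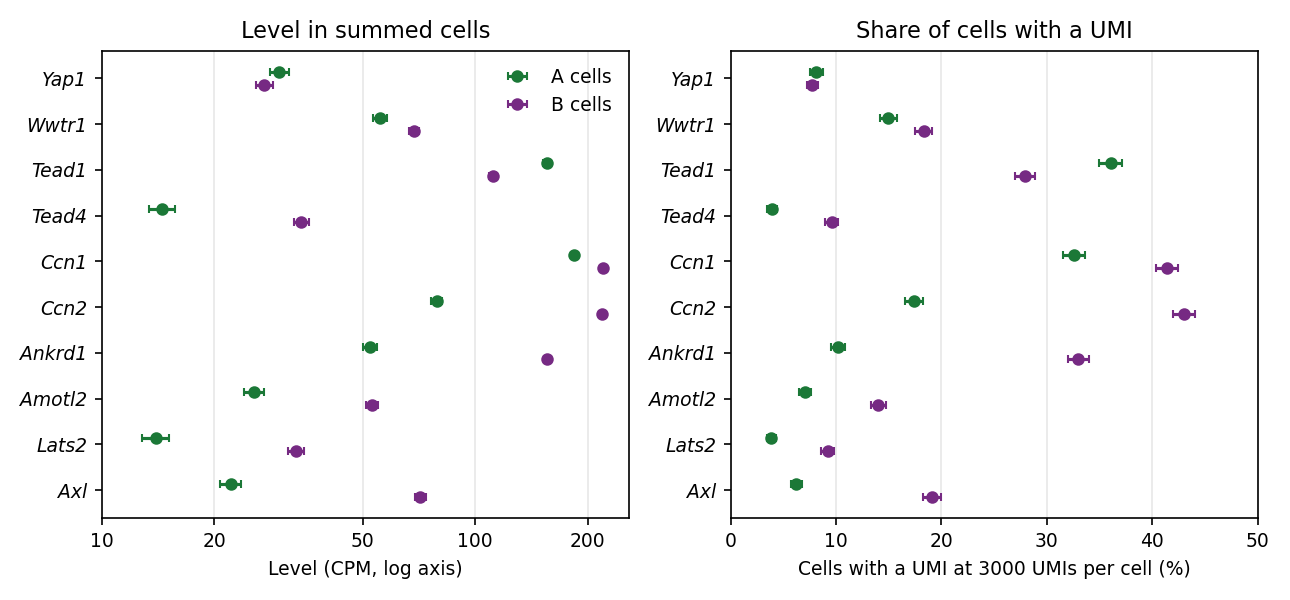
Levels (CPM, log axis, left) and share of cells with a UMI after thinning to 3000 UMIs per cell (%, right) of the 10 genes in A cells and B cells; points are values of the 1 library and bars are 95% counting intervals. Yap1 lies at nearly the same place in both groups, Tead1 is higher in A cells, and Ccn2, Ankrd1 and Axl show wide gaps towards B cells.

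The coactivators themselves differed little. Yap1 had 29.9 CPM (28.2 to 31.6) in A cells and 27.2 CPM (25.8 to 28.7) in B cells, a ratio of A over B of 1.10 (1.02 to 1.19). Relative to the median feature its log2 ratio changed sign, from 0.14 to -0.03, so no direction is given for Yap1. Wwtr1, which encodes TAZ, had 55.5 CPM (53.2 to 57.9) in A cells and 68.5 CPM (66.3 to 70.8) in B cells, a ratio of B over A of 1.23 (1.17 to 1.30). Of the UMIs of Yap1 and Wwtr1 together, Yap1 took 35.0% (33.4 to 36.6%) in A cells and 28.4% (27.2 to 29.7%) in B cells. UMIs count molecules at the 3′ end and are not scaled to length, so such shares are read between groups and not as the order of 2 proteins.

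The TEAD genes differed in opposite directions: Tead1 was higher in A cells and Tead4 in B cells. Tead1 had 155.6 CPM (151.7 to 159.5) in A cells and 111 CPM (109 to 114) in B cells, a ratio of A over B of 1.40 (1.35 to 1.45). Tead4 had 14.5 CPM (13.4 to 15.7) and 34.2 CPM (32.7 to 35.9), a ratio of B over A of 2.36 (2.15 to 2.60). Among the UMIs of Tead1, Tead2, Tead3 and Tead4, Tead4 held 8.12% (7.50 to 8.78%) in A cells and 22.8% (21.9 to 23.7%) in B cells, and Tead1 held 87.1% and 74.2%. Tead2 and Tead3, which lay under the 10 CPM minimum, had 1.91 and 6.56 CPM in A cells against 0.0758 and 4.47 CPM in B cells. The Tead2 values rest on 77 and 4 UMIs.

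Among the target genes, Ccn1 and Ccn2 encode related secreted matricellular proteins, yet only Ccn2 passed 2-fold. Ccn2 had 78.8 CPM (76.1 to 81.6) in A cells and 218.5 CPM (214.6 to 222.6) in B cells, a ratio of B over A of 2.77 (2.67 to 2.89). Ccn1 had 184 CPM (180 to 188) and 219 CPM (215 to 223), a ratio of 1.19 (1.16 to 1.23). The share of Ccn2 in the UMIs of the pair was 29.95% (29.1 to 30.8%) in A cells and 49.9% (49.3 to 50.6%) in B cells. Ankrd1, a nuclear and sarcomeric ankyrin-repeat protein, had 52.2 CPM (49.99 to 54.5) and 155.7 CPM (152.4 to 159.1), a ratio of 2.98 (2.84 to 3.13). Axl, a receptor tyrosine kinase of the TAM family, had the widest gap of the 10 genes, with 22.2 CPM (20.7 to 23.7) and 71.3 CPM (69.0 to 73.6), a ratio of 3.22 (2.99 to 3.47).

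Amotl2 and Lats2 are targets that feed back on the pathway, through an angiomotin and a kinase that both restrain YAP and TAZ. Amotl2 had 25.6 CPM (24.1 to 27.2) in A cells and 52.9 CPM (51.0 to 54.9) in B cells, a ratio of B over A of 2.07 (1.92 to 2.22). This was the gene nearest to the 2-fold limit. Lats2 had 13.95 CPM (12.8 to 15.2) and 33.1 CPM (31.6 to 34.7), a ratio of 2.37 (2.16 to 2.61). The related kinase gene Lats1 had 29.9 and 28.6 CPM, so that Lats2 made up 31.9% (29.7 to 34.1%) of the UMIs of Lats1 and Lats2 in A cells and 53.6% (51.9 to 55.4%) in B cells. Amotl2 made up 50.4% (48.3 to 52.6%) and 61.7% (60.2 to 63.1%) of the UMIs of Amot, Amotl1 and Amotl2.

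Shares of cells with a UMI were also higher in B cells for the 6 genes. They were read after each cell was thinned at random to 3000 UMIs, which left out 410 A cells and 109 B cells. Ankrd1 was seen in 10.2% (9.50 to 10.9%) of A cells and 33.0% (32.0 to 34.0%) of B cells, Axl in 6.24% and 19.1%, and Ccn2 in 17.4% and 43.0%. Ccn1 was seen in 32.6% and 41.4%, Amotl2 in 7.01% and 14.01%, Lats2 in 3.85% and 9.21%, and Tead4 in 3.90% and 9.58%. The share for Tead1 was 36.1% in A cells and 27.9% in B cells, for Wwtr1 14.97% and 18.3%, and for Yap1 8.10% and 7.75%. Without thinning the shares were higher, for example 14.99% and 51.2% for Ankrd1 and 13.7% and 14.7% for Yap1. No cells that should lack these genes were at hand. Genes mostly of 1 group were read as a reference for free RNA. Krt7, a keratin gene mostly of B cells (53.4 CPM in A and 1358 CPM in B cells), was seen in 96.2% of thinned B cells and 10.2% of A cells (99.1% and 15.2% without thinning). Krt7 had a far higher level in B cells than any of the 10 genes, so its share in A cells is no limit for theirs, and the part of free RNA in their shares was not tested. In the other direction Acta2, a gene mostly of A cells, was seen in 19.2% of thinned A cells and 0.997% of B cells (25.1% and 1.84% without thinning), at the median depths given above.

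Ccn1, Ccn2 and Ankrd1 had a higher variance over the mean across cells of the same group than the other 7 genes. In thinned A cells the variance over the mean was 1.99 for Ccn1, 1.98 for Ankrd1 and 1.54 for Ccn2, against a median of 1.02 and a 90th percentile of 1.11 (1.105) over 6957 features. In B cells the values were 1.59, 1.31 and 1.42, against 1.02 and 1.09 over 6495 features. The other 7 genes lay between 0.995 and 1.07 in A cells and between 1.01 and 1.06 in B cells, close to pure counting. At low levels this measure nears pure counting whatever the spread. It does not show that the rarer of the 7 genes lack variation. In A cells Tead1, with a mean of 0.460 thinned UMIs, had 1.06, against 1.98 for Ankrd1 with a mean of 0.146. Of thinned A cells, 5.37% had 3 or more Ccn1 UMIs, with a highest count of 12. In B cells the share was 5.71%, and the highest count was also 12. Because of this spread, the counting intervals of the 3 genes are narrower than the variation between cells.

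By Pearson's r, co-expression was highest among the same 3 genes in both groups. Over the 45 pairs of the 10 genes, Pearson's r across thinned cells was at least 0.1 in 3 pairs in A cells (n = 7406 cells) and in 3 pairs in B cells (n = 8827 cells), and in each group these were the pairs among Ccn1, Ccn2 and Ankrd1. This count depends on depth: without thinning there were 6 pairs in A cells and 5 in B cells, and at 6000 UMIs there were 8 and 5. At 3000 UMIs the limit of 0.1 was reached by 0.0313% of all pairs of features in A cells and 0.0119% in B cells. That share was not computed without thinning or at 6000 UMIs. In A cells r was 0.24 for Ccn1 with Ankrd1, 0.19 for Ccn1 with Ccn2 and 0.149 for Ccn2 with Ankrd1. In B cells the values were 0.14, 0.17 and 0.12. The cells share 1 library, and in counts this sparse r is held down by sampling and depends on the level of the genes, so it is given as a description.

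**Figure D2:**
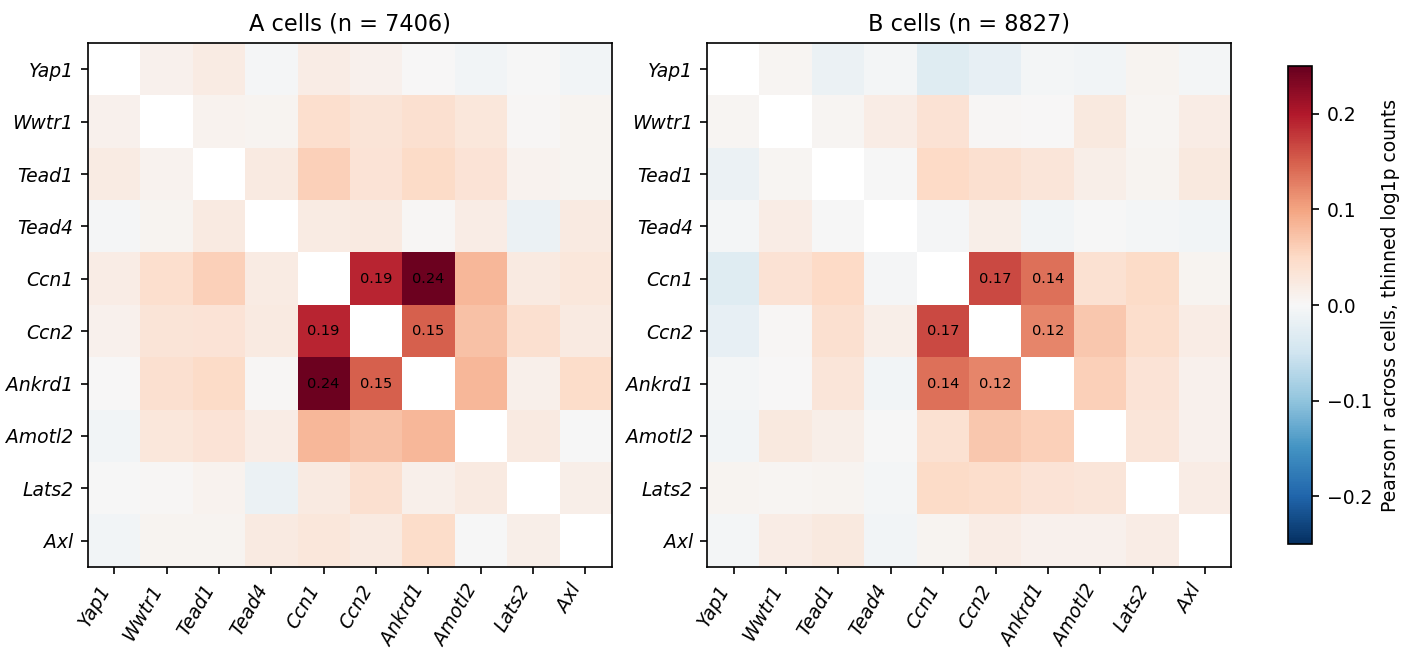
Pearson r across thinned cells (log1p counts, colour scale from -0.25 to 0.25) for each pair of the 10 genes in A cells (n = 7406, left) and B cells (n = 8827, right); values of at least 0.1 are written in. The square of Ccn1, Ccn2 and Ankrd1 stands out in both panels, and the rows of Yap1 and Tead4 are near 0.

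Cells holding both genes gave another order of the pairs, in which Amotl2 stood higher. The ratio of observed over expected cells has a ceiling that falls as the shares of cells with each gene rise. Rarer genes have more room, so the ratios do not rank the strength of co-expression between pairs or between groups. Ccn1 and Ankrd1 were seen together in 413 A cells, 1.68 times the 245.5 expected if the genes were independent. In B cells they were seen together in 1381 cells, 1.15 times the 1205 expected. Ccn1 and Ccn2 shared 630 A cells (1.51 times expected) and 1820 B cells (1.16 times). Ccn2 and Ankrd1 shared 225 A cells (1.72 times) and 1442 B cells (1.15 times). Amotl2 with Ankrd1 had a ratio of 1.20 in B cells and 1.80 in A cells, the highest of the 45 pairs there, although r was 0.059 and 0.084. In B cells the highest in value was Amotl2 with Lats2, at 1.24 times expected (141 cells), with an r of 0.030. No interval was computed for these ratios, so close values are not ordered. Ccn2 with Amotl2 had 1.57 times (141 cells) in A cells and 1.17 times (624 cells) in B cells. Among the remaining pairs the lowest r was -0.014 in A cells and -0.030 in B cells. The median over the 45 pairs was 0.022 in A cells and 0.011 in B cells, against 1.9e-04 and 2.0e-04 over all pairs of features. Of the 45 pairs, 39 and 32 were above 0, and the share of all pairs of features above 0 was not computed.

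Levels in cells with and without a Ccn1 UMI show the size of this. In A cells Ankrd1 had 93.7 CPM where Ccn1 was seen and 27.0 CPM where it was not, a ratio of 3.48 (3.07 to 3.94). For Ccn2 the levels were 120.6 and 55.0 CPM, a ratio of 2.19 (1.99 to 2.41), and for Amotl2 35.3 and 20.1 CPM, a ratio of 1.76 (1.48 to 2.08). In B cells the ratios were smaller in size, at 1.46 (1.37 to 1.55) for Ankrd1, 1.47 (1.40 to 1.55) for Ccn2 and 1.24 (1.11 to 1.38) for Amotl2. Ratios of the upstream genes were also read. Tead1 had a ratio of 1.17 (1.09 to 1.26) in A cells and 1.16 (1.08 to 1.25) in B cells, and Wwtr1 of 1.22 (1.09 to 1.37) and 1.19 (1.08 to 1.30). Yap1 had a ratio of 1.16 (0.980 to 1.36) in A cells, whose interval includes 1, and of 0.771 (0.659 to 0.901) in B cells. Axl, with the widest gap between the groups, had a ratio of 1.36 (1.13 to 1.63) in A cells and 1.04 (0.9496 to 1.14) in B cells.

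For Ankrd1, Ccn2 and Tead1 the levels in both groups were higher in cells with 4 or more Ccn1 UMIs than in cells with 0. In the 4995 A cells with 0 Ccn1 UMIs, Ankrd1 had 27.0 CPM (24.4 to 29.7), and in the 181 A cells with 4 or more it had 337 CPM (290.0 to 389.5). In B cells it had 127 CPM (122 to 133) in the 5174 cells with 0 and 326 CPM (282 to 376) in the 193 cells with 4 or more. Thus the highest classes of the groups overlapped, whereas the classes with 0 did not. For Ccn2 the highest classes did not overlap, at 256 CPM (215 to 302) in A cells and 469.8 CPM (415.6 to 529.1) in B cells. Amotl2 had 20.1 CPM (17.9 to 22.5) and 55.3 CPM (37.3 to 78.9) at the ends of the A classes, which do not overlap. In B cells its ends, at 47.2 CPM (43.8 to 50.7) and 65.6 CPM (46.4 to 90.1), overlapped. The ends also overlapped for Axl, with 19.6 CPM (17.4 to 21.9) and 29.5 CPM (16.8 to 47.9) in A cells, and 70.4 CPM (66.2 to 74.7) and 79.5 CPM (58.2 to 106) in B cells. Among the upstream genes, Tead1 had 145 CPM (139 to 152) and 247 CPM (207 to 292) in A cells, and 103.5 CPM (98.5 to 109) and 174 CPM (142 to 212) in B cells. Yap1 had 27.5 CPM (24.9 to 30.3) and 33.2 CPM (19.7 to 52.4) in A cells, and 29.8 CPM (27.2 to 32.7) and 29.4 CPM (17.1 to 47.0) in B cells, which overlap within each group. So did the ends of Wwtr1, at 51.4 CPM (47.8 to 55.2) and 75.5 CPM (54.2 to 102) in A cells and 64.2 CPM (60.3 to 68.4) and 72.5 CPM (52.3 to 98.1) in B cells. Overlapping ends do not mean that all classes overlapped. In B cells with 1 Ccn1 UMI, Yap1 had 22.8 CPM (19.4 to 26.6), below the class with 0. Wwtr1, at 75.7 CPM (69.35 to 82.45), and Amotl2, at 56.5 CPM (51.1 to 62.4), lay above it there. In A cells with 1 Ccn1 UMI, Axl had 28.6 CPM (23.9 to 34.0), above the class with 0.

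**Figure D3:**
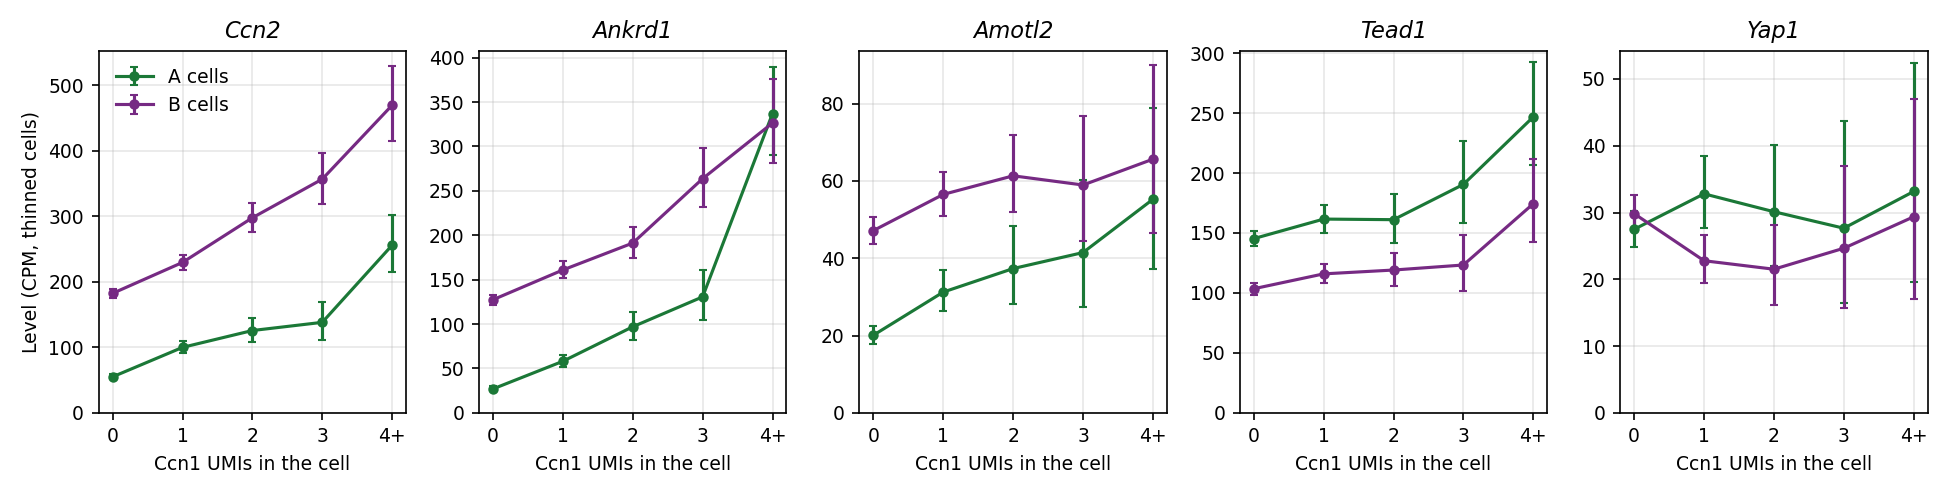
Level (CPM in thinned cells, vertical axes start at 0) of Ccn2, Ankrd1, Amotl2, Tead1 and Yap1 in A cells and B cells with 0, 1, 2, 3 or 4 and more Ccn1 UMIs; bars are 95% counting intervals. Ccn2 and Ankrd1 are higher in cells with more Ccn1 UMIs in both groups. Ankrd1 overlaps between groups in the highest class, at 337 CPM in A cells and 326 CPM in B cells. Tead1 is highest in the class of 4 and more in both groups. The Yap1 intervals overlap between the end classes, but in B cells not between the classes of 0 and 1.

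Among the 3 features closest to each member, those outside the pathway with an r of at least 0.15 were Sorbs2, Acta2 and Clu. Features beyond the 3 closest were not read. Among 6957 features in A cells, those with an r of at least 0.15 within the 3 closest to a member were found for 3 members. Ccn1 was closest to Ankrd1 (0.24), Sorbs2 (0.21) and Ccn2 (0.19). Ankrd1 was closest to Ccn1, Sorbs2 (0.23) and Acta2 (0.19), and Ccn2 to Ccn1 and Sorbs2 (0.18). Sorbs2 encodes an adaptor of actin-anchored adhesions, and had 323 CPM in A cells and 213 CPM in B cells. Acta2 encodes smooth-muscle actin and had 144 and 5.89 CPM. Among 6495 features in B cells, Ccn1 was closest to Ccn2 (0.17), and Ccn2 to Ccn1 and to Clu (0.15). Cald1, the next closest to Ccn1 after Ccn2 there, lay just under the limit at 0.148. Clu encodes the secreted chaperone clusterin and had 309 and 1179 CPM. For the other 7 genes no feature reached 0.15 in either group.

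Summed lists of related genes were read in the same way. With the 15 other YAP and TAZ target genes, r was 0.086 for Ankrd1, 0.068 for Ccn1 and 0.033 for Ccn2 in A cells, and 0.063, 0.085 and 0.11 in B cells. With 12 actin cytoskeleton and SRF target genes, r was 0.18 for Ankrd1, 0.16 for Ccn1 and 0.10 for Ccn2 in A cells, and 0.047, 0.12 and 0.090 in B cells. This list summed to 1241 CPM in A cells and 1200 CPM in B cells, and was led by Tpm1; 2 of its 7 tested genes were at least 2-fold higher in A cells and 0 in B cells, against 10.3% and 7.26% of all features. With the 12 immediate-early genes, r was 0.15 for Ccn1 in A cells and 0.091 in B cells. It was 0.073 and 0.078 for Ankrd1, and 0.047 and 0.053 for Ccn2. The immediate-early list summed to 391.5 CPM in A cells and 824 CPM in B cells, with 4 of its 10 tested genes at least 2-fold higher in B cells and 1 in A cells, against 7.26% and 10.3% of all features. Its highest gene was Ier3 in A cells, at 84.2 and 250.2 CPM, and Junb in B cells, at 67.7 and 253.8 CPM. The other 5 tested genes of the list passed in neither direction. The part of these genes in the difference of Ccn2 and Ankrd1 was not tested. With the S phase list, r lay between -0.026 and 0.054 over the 10 genes and both groups. With the G2/M list, Ccn1 had an r of -0.097 in B cells and 0.017 in A cells, and Ccn2 of -0.055 and 0.003. With the total UMIs of the cell before thinning r was at most 0.072, for Ankrd1 in A cells. With the mitochondrial share it lay between -0.045 and 0.039.

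Some of the 10 genes also differed by state within A cells and within B cells, but only within A cells by 2-fold or more. State E cells (1142, or 14.6% of A cells) had UMIs of S100g, Epcam and Tm4sf20, and state C cells (2478, or 31.7%) of Tnc, Acta2 and Ptchd4. State K cells (541, or 6.05% of B cells) had UMIs of Krt14 and Sprr1a, and state R cells (4714, or 52.8%) of Areg, Btc and Cftr. Each had at least 2 such UMIs and at least 3 times those of the other state of its group. Median depths were 4507, 5156, 6097 and 5530 UMIs. These state genes lead clusters of the same cells, so the values are a description.

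Ankrd1 differed most between the A states. It had 16.3 CPM in state E and 85.8 CPM in state C, a ratio of C over E of 5.27 (4.26 to 6.60). Ccn2 had 44.7 and 103 CPM, a ratio of 2.32 (2.02 to 2.66), Axl 12.7 and 28.9 CPM, a ratio of 2.28 (1.77 to 2.97), and Amotl2 16.1 and 32.8 CPM, a ratio of 2.04 (1.62 to 2.58). These 4 of the 10 genes were at least 2-fold higher in state C and 0 in state E, against 0.873% and 3.57% of 8702 features. Ccn1, at 133 and 238 CPM, had a ratio of 1.79 (1.65 to 1.94). Lats2 had a ratio of 1.57 (1.18 to 2.13), Wwtr1 of 1.31 (1.14 to 1.51) and Tead1 of 1.22 (1.12 to 1.32). The intervals of Yap1 (0.888 to 1.29) and Tead4 (0.930 to 1.65) included 1.

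Between the B states 0 genes differed 2-fold in either direction, against 1.66% of 8239 features higher in state K and 0.316% higher in state R. Ccn1 had 342 CPM in state K and 187 CPM in state R, a ratio of K over R of 1.83 (1.71 to 1.94). The ratio was 1.55 (1.45 to 1.65) for Ccn2, 1.51 (1.40 to 1.64) for Ankrd1, 1.47 (1.23 to 1.75) for Lats2, 1.32 (1.17 to 1.499) for Wwtr1 and 1.31 (1.13 to 1.51) for Amotl2. Axl went the other way in value, with 63.8 and 72.4 CPM, but its interval (0.762 to 1.01) included 1. So did those of Tead1 (0.996 to 1.23), Tead4 (0.845 to 1.25) and Yap1 (0.841 to 1.30).

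**Figure D4:**
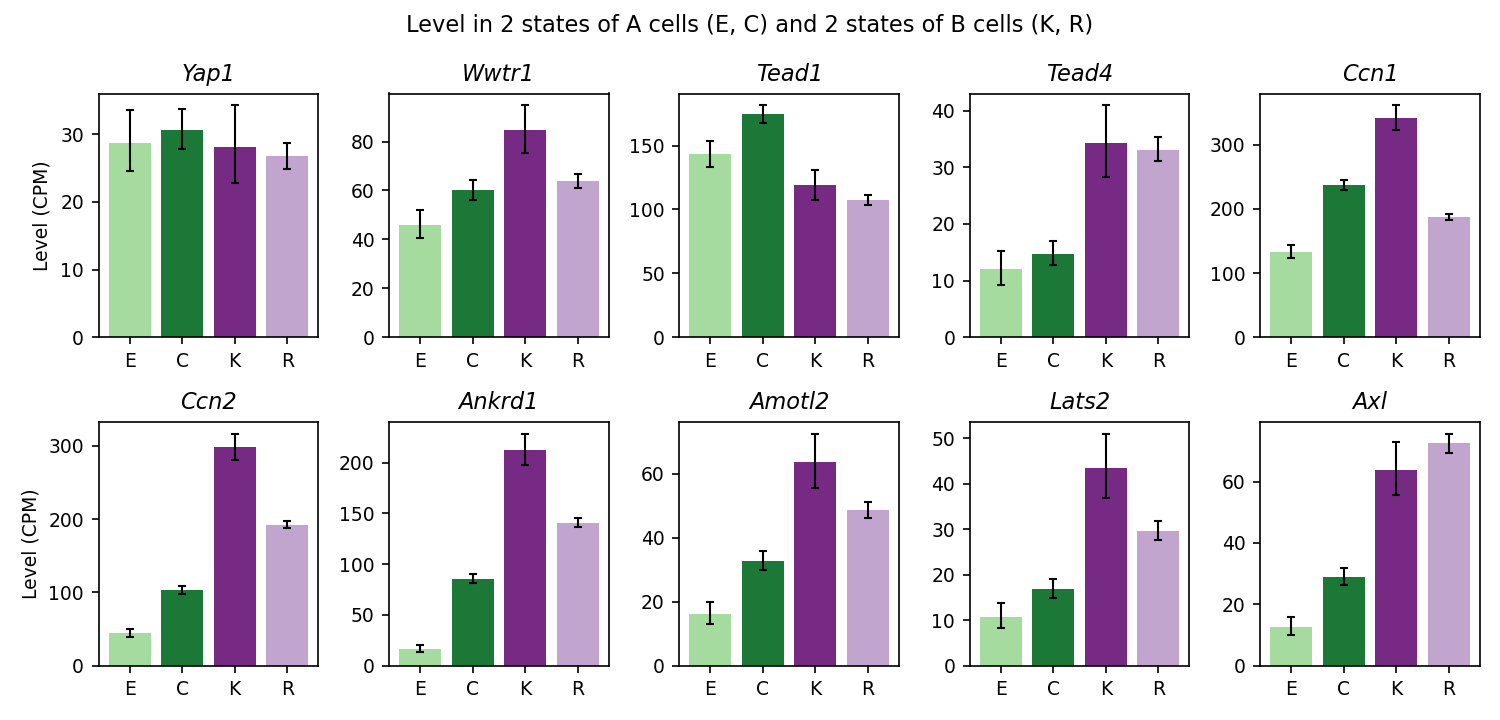
Level (CPM, vertical axes start at 0) of the 10 genes in states E and C of A cells and states K and R of B cells; bars show the value in the 1 library with its 95% counting interval. Ccn2, Ankrd1, Amotl2 and Lats2 step up in the order E, C, R and K, whereas Yap1 is level and Tead1 is highest in state C at 174.6 CPM.

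Over the 4 states, Ccn2, Ankrd1, Amotl2 and Lats2 had the same order, from state K through R and C down to E, with no overlap between neighbours. In this order Ccn2 had 298, 193, 103 and 44.7 CPM, and Ankrd1 had 213, 141, 85.8 and 16.3 CPM. Correlations within states were chosen after seeing the data. In state C (n = 2409 cells) r of Ccn1 with Ankrd1 was 0.275, in state E (n = 1050) 0.061, in state K (n = 538) 0.115 and in state R (n = 4675) 0.112. For Ccn1 with Ccn2 it was 0.187, 0.115, 0.237 and 0.134 in the same order. The lower of the B states was above the higher of the A states by 1.86 times for Ccn2, 1.64 for Ankrd1, 1.76 for Lats2, 1.48 for Amotl2, 2.21 for Axl and 2.25 for Tead4. For Ccn1 this did not hold: state C, at 238 CPM, lay above state R, at 187 CPM. Wwtr1 had its highest level in state K, at 84.6 CPM, and states R (63.9 CPM) and C (60.2 CPM) overlapped. Tead1 was highest in state C and its K and R levels overlapped. For Tead4 only the step between the B and A states lay outside the intervals, and for Yap1 all neighbours overlapped, between 26.8 and 30.7 CPM.

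The other genes of the pathway were counted in the same way. Of 25 genes for upstream Hippo components and nuclear partners, 18 reached 10 CPM; 2 were at least 2-fold higher in B cells, 0 in A cells, and 16 in neither, against 7.26% and 10.3% of all features. The 2 were Ajuba, a LIM protein that inhibits LATS, at 12.3 and 26.7 CPM, and Wwc1, also called KIBRA, an activator of the kinases, at 78.0 and 165.5 CPM. Their ratios of B over A were 2.18 (1.97 to 2.42) and 2.12 (2.04 to 2.21). Map4k4, counted in neither, lay just under the limit at 74.6 and 148.5 CPM, a ratio of 1.99 (1.91 to 2.08). By UMIs of both groups together, the list's most abundant gene was Fat1, an atypical cadherin, at 135 and 171 CPM. In A cells alone Wwc2, a relative of Wwc1, was higher, at 143 CPM. Its median log2 ratio of A over B was 0.01, against 0.17 over all features.

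Of 15 other YAP and TAZ target genes, 10 were tested; 2 were at least 2-fold higher in B cells, 1 in A cells, and 7 in neither, against the same 7.26% and 10.3% of all features. F3, the gene of tissue factor, had 87.9 CPM (84.98 to 90.8) in A cells and 529 CPM (523 to 535) in B cells, a ratio of B over A of 6.02 (5.82 to 6.24). Nuak2, a kinase gene, had 8.82 and 20.1 CPM, a ratio of 2.27 (2.02 to 2.57). Tgfb2, a TGF-beta ligand, went the other way, with 18.5 CPM (17.2 to 19.9) and 1.88 CPM (1.53 to 2.28), a ratio of A over B of 9.87 (7.997 to 12.3). By UMIs of both groups together, the most abundant target within 2-fold was Myof, a membrane-repair protein of the ferlin family, at 227 and 189 CPM. In B cells alone Asap1 was higher, at 199.9 CPM. The median log2 ratio of the list was -0.03. The 4 other CCN family genes all lay under 10 CPM and summed to 1.29 and 2.98 CPM, with Ccn3 the highest in A cells (1.22 CPM) and Ccn4 in B cells (1.72 CPM).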

How the data were processed

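The deposited matrix holds raw UMI counts per gene and cell barcode of 1 library, made with 3′ v4 droplet chemistry per the labels' protocols, and written by Cell Ranger 8.0.1 per the file headers. The build is GRCm39 per the submitters' processing notes. The annotation and the authors' barcode filter are not given in the sources used here.

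Barcodes were filtered, placed as A or B cells, and summed. CPM values and ratios came from those sums, with exact conditional binomial intervals for ratios. A feature was tested at 10 CPM or more in either group and counted at 2-fold or more. Correlations used log1p counts after thinning to 3000 UMIs, and the background of all pairs used features with a mean of at least 0.05 thinned UMIs. The 10 members were kept whatever their mean, and Tead4 and Lats2 in A cells lay under it, at 0.0397 and 0.0405. Doublets were left to the rule for A and B cells. Scrublet in scanpy 1.11.5, at an expected rate of 0.08, marked 778 of 21361 cells (3.64%), of which 146 were A and 208 B cells, and they were removed as an alternative. Values were computed in Python 3.11.15 with numpy 2.4.6 and scipy 1.17.1 and were tested on simulated data.

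The members and gene lists were chosen with earlier results of these data known. All 10 members were named. From the pathway lists, genes past 2-fold and the most abundant other gene were named. The 3 features with the highest r per member were taken, other members included and mitochondrial and ribosomal-protein genes left out. They were named where r was at least 0.15. Of marker lists the most abundant gene was named. Most abundant means by UMIs of both groups together. Tead2, Tead3, Lats1, Epcam, Cald1, Map4k4, the genes highest in 1 group only and the shares among relatives were chosen after their values were seen. Alternatives changed the cell filter, the A and B rule, doublets, scaling, depth, the minimum level and the correlation.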

Additional observations from a re-analysis of the deposited data

How the results depend on the processing

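With 1 library, no setting measures the spread between cultures or clones. The count of 6 genes at least 2-fold higher in B cells and 0 in A cells was the same under 8 of the 9 changes of cells or scaling. It was 5 under the strict cell filter (5000 UMIs, 2000 genes, 10% mitochondrial), where the log2 ratio of Amotl2 was -1.0, and 4 with a minimum of 50 CPM, which left out Tead4 and Lats2. At 1.5-fold it was 6. The shares of all features were not computed at 1.5-fold or at the minimum of 50 CPM. Counts at these limits, also those of the lists, thus have no background. The count of 5 for the pathway and target lists (1 higher in A, 4 in B) was 2 with the minimum of 50 CPM, which tests fewer genes, and 9 at 1.5-fold. It lay between 5 and 7 elsewhere. Of 90 log2 ratios of the 10 genes under these settings, 69 stayed within their counting interval, 21 moved and 0 of those past 2-fold changed sign. Axl ranged from -1.96 (cells with 4000 to 6000 UMIs) to -1.53 (strict filter), and Ankrd1 from -1.74 (scaled to the median ratio) to -1.41 (strict filter).

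Pairs with an r of at least 0.1 numbered 3 in each group. Without thinning there were 6 in A cells and 5 in B cells, and at 6000 UMIs 8 and 5, in fewer cells (1899 and 3331). The share over all pairs of features was not computed at either depth. With Spearman correlation, with marked barcodes removed and with the stricter rule (4 UMIs and 6-fold) there were 3 and 3. Inside single states, chosen after seeing the data, the 3 pairs had an r between 0.061 (Ccn1 with Ankrd1 in state E) and 0.275 (the same pair in state C). The share of cells with a UMI moved for every gene in both groups, without thinning and at 6000 UMIs, in all 40 comparisons.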

Other observations

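The 464 cells with at least 2 UMIs of both marker sums had a median of 8490.5 UMIs. Their levels were 129 CPM for Ccn2, 109 CPM for Ankrd1, 52.1 CPM for Axl and 22.8 CPM for Lats2, each between the levels of A and B cells. Tead4, at 30.8 CPM (25.6 to 36.8), overlapped with the B level. The 3966 cells with under 2 UMIs of both sums had a median of 4111.5 UMIs, with 111 CPM for Ccn2, 72.5 CPM for Ankrd1 and 40.3 CPM for Axl, also between the groups. Ccn1 in these cells, at 155 CPM (149 to 161), lay below both groups. Their Yap1 level was 32.4 CPM (29.8 to 35.2).

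Among the target and CCN genes under 10 CPM, chosen after their values were seen, Igfbp3 had 0.670 CPM in A cells (27 UMIs) and 8.02 CPM in B cells (423 UMIs), and Ccdc80 had 1.51 and 8.41 CPM. Ccn4 had 1 UMI in A cells and 91 in B cells.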
